A study of Mus musculus with 4 samples.

Results

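The T-box transcription factor genes Tbx21 and Eomes were followed across wild-type and Foxo1-deficient mouse T cells. Each is represented by the probe sets that carry its symbol in either of the authors' deposited fold change tables, which gave 1 probe set for Tbx21 and 1 for Eomes, or 2 of the 507 genes that have a symbol there. Either gene may have further probe sets on the array, and these were not followed here. Those tables list only probe sets with a ratio of at least 2 in either direction between genotypes, so a probe set entered because the authors saw it change in at least 1 cell type. The Tbx21 probe set was listed for CD8 T cells alone and the Eomes probe set for CD4 T cells alone.

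The samples were CD4 and CD8 T cells isolated from mouse spleen and lymph nodes, at an age of 6 to 8 weeks, each labelled as wild-type or as Foxo1-deficient, and the series sought genes controlled by the forkhead transcription factor Foxo1. RNA from each of the 4 combinations was hybridised to 1 Affymetrix array, so no value has a replicate and no spread between animals can be given. How Foxo1 was deleted, which promoter drove the deletion and how many mice were pooled are not given in the sources used here. Intensities below 74.9, the median of all values, were treated as not measured and set to that floor, and a fold against such a value is a lower bound, written "at least". The 4 arrays had median intensities of 69.0 to 77.6. Over the 4 probe sets of Foxo1, the signal left, without a floor, in the deficient arrays as a share of the wild-type array was 4.91% to 13.5% for CD4 and 11.6% to 26.6% for CD8 T cells. None of the 14 defining markers of T cells, CD4 T cells and CD8 T cells on the lists used here carried a symbol, so the cell type labels were not checked against them.

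T-box factors bind DNA through a conserved domain named after the Brachyury gene. Tbx21 encodes T-bet, the lineage factor of type 1 helper T cells, which turns on the gene for interferon gamma. Eomes encodes eomesodermin, which acts beside T-bet in CD8 T cells and natural killer (NK) cells. In CD8 T cells both drive cytotoxic genes and the receptor chain through which interleukin-15 maintains memory cells, with T-bet leaning towards short-lived effector cells and eomesodermin towards memory cells. Foxo1 keeps naive T cells quiescent and is held out of the nucleus by Akt signalling after activation.

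The bases just upstream of the 2 genes are shown because both had higher signal in the arrays without Foxo1, which makes the letters near their start sites of interest. They come from RefSeq (GRCm38.p6), run 5′ to 3′ on the gene's own strand and cover 247 bases, from 250 to 4 bases before the annotated gene start for Tbx21 and from 247 to 1 for Eomes. Capitals mark every match, on either strand, to the 7 motifs searched, which were chosen with these results known. The FoxO site was searched as GTAAACA, and its core on its own as AAACA. The site that T-box factors themselves bind was searched as GGTGTGA, with its core as GGTGT. The other 3 are general promoter elements, namely the CCAAT box, the GC box written as GGGCGGGG, and the TATA box written as TATATAA. Tbx21 lies on chromosome 11 (97098007 to 97115331) and its window is chr11:97115335-97115581, minus strand. Eomes lies on chromosome 9 (118478186 to 118486132) and its window is chr9:118477939-118478185, plus strand.
Tbx21 upstream: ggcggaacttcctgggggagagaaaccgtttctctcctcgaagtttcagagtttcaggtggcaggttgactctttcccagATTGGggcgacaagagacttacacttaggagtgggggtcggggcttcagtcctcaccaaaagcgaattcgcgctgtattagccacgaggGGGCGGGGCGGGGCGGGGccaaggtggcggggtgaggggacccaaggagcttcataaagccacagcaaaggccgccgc
Eomes upstream: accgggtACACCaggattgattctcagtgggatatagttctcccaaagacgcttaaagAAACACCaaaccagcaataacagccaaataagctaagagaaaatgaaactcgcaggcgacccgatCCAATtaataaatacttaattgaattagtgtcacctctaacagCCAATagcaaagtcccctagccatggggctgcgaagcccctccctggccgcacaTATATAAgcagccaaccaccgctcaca

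The windows had little in common. The Tbx21 window had a GC content of 60.3% and held 3 overlapping GC boxes, which 15.8% of 32851 mouse promoter windows of the same length held at least once, and a single CCAAT box on the opposite strand. The Eomes window had a GC content of 46.6%, against a median of 52.2% over all windows, with a TATA box whose first base lay 27 bases before the start. It also held 2 CCAAT boxes, 2 matches to the core of the T-box site on the opposite strand, and 1 match to the FoxO core, which overlaps the second of these 2. The full FoxO site, found in 3.13% of all windows, and the full T-box site, found in 3.29%, matched neither window. The CCAAT box was present in 33.6% of all windows, the FoxO core in 46.1%, the core of the T-box site in 35.8% and the TATA box in 3.02%. A match is a match of letters alone, and the absence of one says nothing of binding elsewhere in the gene.

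Tbx21 was highest in Foxo1-deficient CD8 T cells. Its intensity was 8.65 in wild-type CD4, 110 in Foxo1-deficient CD4, 165 in wild-type CD8 and 1295 in Foxo1-deficient CD8 T cells. The wild-type CD4 value lay below the floor and exceeded only 15.3% of the probe sets on its array. The deficient CD4 value exceeded 55.6%, the wild-type CD8 value 62.3% and the deficient CD8 value 86.8% of probe sets. The 2 middle values, wild-type CD8 and deficient CD4, differed by 1.51-fold, or 0.59 on the log2 scale. The only spread these arrays offer is that between probe sets of the same gene, which was 0.38 log2 units for the genotype difference in CD8 (pooled SD, 76 genes) and 0.39 in CD4. It measures probes, not mice, so whether those 2 middle levels differ cannot be said.

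The Eomes intensities were ordered by cell type first and by genotype second. Its intensity was 279 in wild-type CD4, 438 in Foxo1-deficient CD4, 1350 in wild-type CD8 and 2183 in Foxo1-deficient CD8 T cells, all above the floor. Both CD8 arrays thus lay above both CD4 arrays, and within each cell type the deficient array lay above the wild-type array. The genotype steps, 0.65 log2 units in CD4 and 0.69 in CD8, were close in size to the gap between the middle Tbx21 values. With 1 array per group, whether the Eomes levels of the genotypes differ cannot be said either. The largest gap between neighbouring levels was the 3.08-fold step from deficient CD4 to wild-type CD8. In bulk RNA such as this, more cells that express a gene and more of its RNA per cell cannot be told apart.

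**Figure D1:**
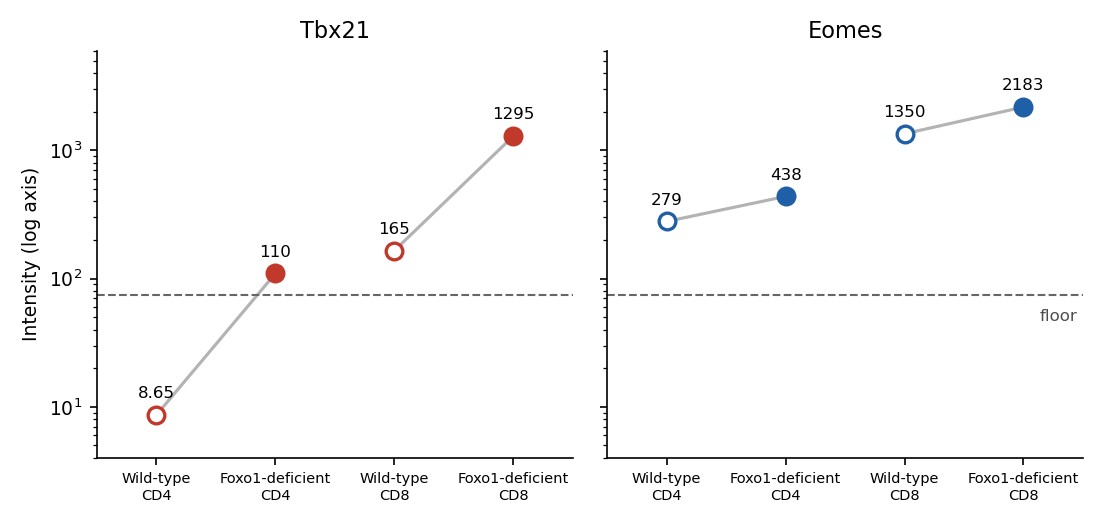
Intensity (log axis) of the Tbx21 and Eomes probe sets in the 4 arrays, 1 point per array, with open points for wild-type and filled points for Foxo1-deficient T cells, grey lines joining the genotypes of a cell type and a dashed line at the floor of 74.9. Tbx21 goes from 8.65 to 1295 and Eomes from 279 to 2183. For both genes the plotted values rise in the order wild-type CD4, deficient CD4, wild-type CD8, deficient CD8. Whether the middle levels of Tbx21 differ cannot be said, nor whether the Eomes levels of the genotypes differ within a cell type.

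Within CD8 T cells the genotypes were compared through 1 array each, which describes these arrays and does not test an effect of Foxo1 loss. Tbx21 was 7.83-fold higher without Foxo1 (165 to 1295, a log2 difference of 2.97), and its value was the 15th highest of 23803 probe sets compared, in a pair of arrays where 1.47% of probe sets were at least 2-fold higher. Eomes was 1.62-fold higher (1350 to 2183, log2 difference 0.69) and did not reach 2-fold, and 4.01% of probe sets had a difference at least as high. The Tbx21 difference is a description of the contrast for which the authors listed the gene, and nothing is supported by it. The Eomes probe set was not listed for CD8 T cells. The median log2 intensity of the deficient CD8 array lay 0.16 below that of the wild-type CD8 array, and after each array was centred on its median the differences were 3.13 for Tbx21 and 0.85 for Eomes.

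In CD4 T cells both genes also read higher without Foxo1, and neither was measured at 2-fold or more. Eomes was 1.57-fold higher (279 to 438, log2 difference 0.65), and 5.16% of 24070 probe sets had a difference at least as high. Tbx21 was at least 1.47-fold higher (8.65 to 110), a bound set by the floor. In these arrays 1.5% of probe sets were at least 2-fold higher. Without a floor, a setting added after the data were seen, the ratio of the Tbx21 intensities in CD4 T cells was 12.7, but it divides by a value in the lowest part of the array's range.

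The 2 cell types gave Eomes nearly the same genotype difference, 0.69 in CD8 and 0.65 in CD4, which differ by 0.05 log2 units or 1.03-fold. After each array was centred on its median, this Eomes gap was 0.17 log2 units. For Tbx21 the genotype difference was larger in CD8 than in CD4 by 2.42 log2 units when the bound is taken as the CD4 value. That order depended on the floor. With the 25th percentile (17.7) as the floor the gap was 0.34, and without a floor it turned to -0.70, larger in CD4. The arrays therefore do not settle in which cell type Tbx21 differed more, and 4 arrays leave no degree of freedom to test it.

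**Figure D2:**
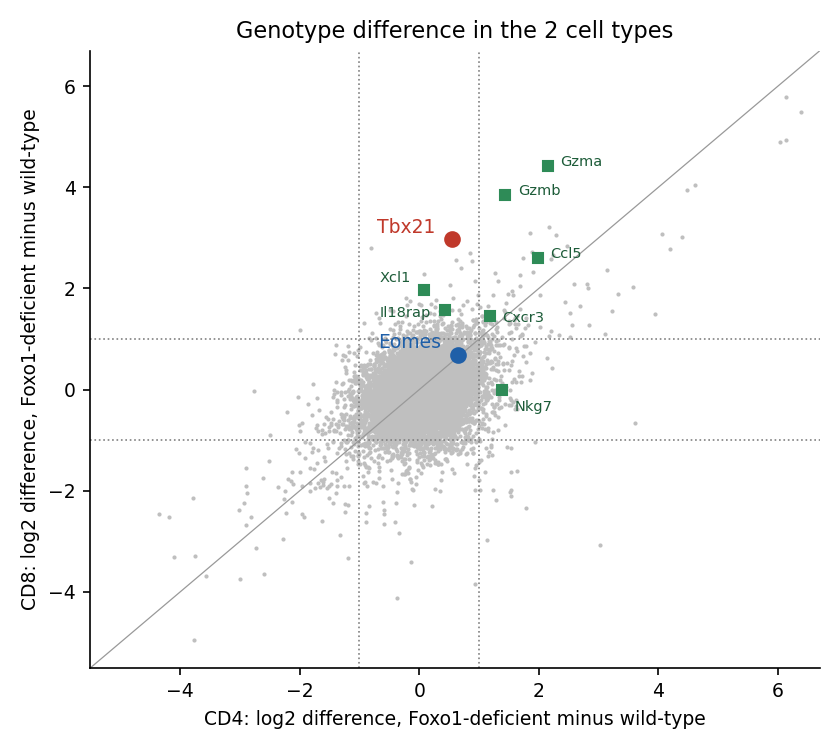
Log2 difference in intensity between Foxo1-deficient and wild-type arrays in CD4 (x axis) and CD8 T cells (y axis) for the 22498 probe sets compared in both (grey), with Tbx21 (red), Eomes (blue) and 7 genes known as T-box targets (green), floored at 74.9, dotted lines at 2-fold and a grey line of equal difference. Tbx21 lies at 0.55 (a bound) and 2.97 and Eomes at 0.65 and 0.69, close to the line of equal difference.

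Between the cell types, both genes were higher in CD8 T cells in either genotype. This contrast was not used to list the genes, though it shares its arrays with the genotype comparisons, and the deficient CD8 array through which Tbx21 was listed is 1 side of the comparison without Foxo1. Eomes was 4.83-fold higher in wild-type CD8 than in wild-type CD4 T cells (1350 against 279, log2 difference 2.27) and 4.99-fold higher in Foxo1-deficient CD8 than CD4 T cells (2183 against 438, log2 difference 2.32). It ranked 78th of 24371 and 70th of 23637 probe sets in these comparisons. Tbx21 was at least 2.21-fold higher in wild-type CD8 T cells (165 against 8.65) and 11.8-fold higher in Foxo1-deficient CD8 T cells (1295 against 110, log2 difference 3.56), where it ranked 21st. At least 2-fold higher in CD8 were 2.2% of probe sets in wild-type and 1.92% in Foxo1-deficient T cells, and both genes were among them in both genotypes. At least 2-fold lower in CD8 were 2.31% and 2.94%.

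The 4 arrays allow 1 test across all probe sets, a limma fit in which genotype and cell type enter additively, on unfloored log2 intensities, with 1 residual degree of freedom. The cell type term put Eomes 2.30 ± 0.15 log2 units (SE, 4 arrays) higher in CD8 than in CD4 T cells and Tbx21 3.91 ± 0.25, with a limma adjusted p of 0.178 for each. The genotype term was 0.67 ± 0.15 for Eomes (limma adjusted p = 0.478) and 3.32 ± 0.25 for Tbx21 (limma adjusted p = 0.414). In this limma fit 0% of 25375 probe sets passed an adjusted p of 0.05 for either term, while 1134 were higher and 1251 lower by genotype, and 1425 and 2198 by cell type, at an unadjusted p under 0.05. The Tbx21 terms rest on the 8.65 in wild-type CD4 T cells taken at face value. With a variance prior in limma that depends on the mean and is robust, 4.97% of probe sets passed for cell type, and the adjusted p was 6.54e-05 for Eomes and 0.000242 for Tbx21. For genotype 1.95% passed with that prior, Tbx21 at an adjusted p of 0.000958 while Eomes had 0.0628. The error of these fits holds array noise and unequal effects in the cell types, not the spread between mice, and the genotype p-values are not independent of how the genes were listed.

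The authors' deposited tables give other sizes for the same probe sets. For Tbx21 in CD8 T cells the authors' deposited table has a ratio of 14.0, from intensities of 2368 without and 169 with Foxo1, against 7.83 in the value table. The wild-type intensities are nearly the same in both (169 and 165), so the gap lies in the deficient intensity, 2368 against 1295. For Eomes in CD4 T cells the authors' deposited table has a ratio of 2.16 (564 over 261), against 1.57 in the value table. By the authors' own ratio Tbx21 was the 8th highest of the 496 probe sets in the CD8 list. Ratios in the authors' deposited tables differed from those of the value table by a median of 0.10 log2 units in CD8 and -0.02 in CD4. These medians are signed, so shifts up and down cancel. The quartiles were -0.08 and 0.29 in CD8, and -0.29 and 0.21 in CD4. Tbx21 was 0.84 and Eomes 0.46 higher in the authors' deposited table. In CD8 92.5% of listed probe sets had a shift no higher than that of Tbx21, and in CD4 87.8% no higher than that of Eomes. No listed probe set had opposite directions in the 2 sources.

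**Figure D3:**
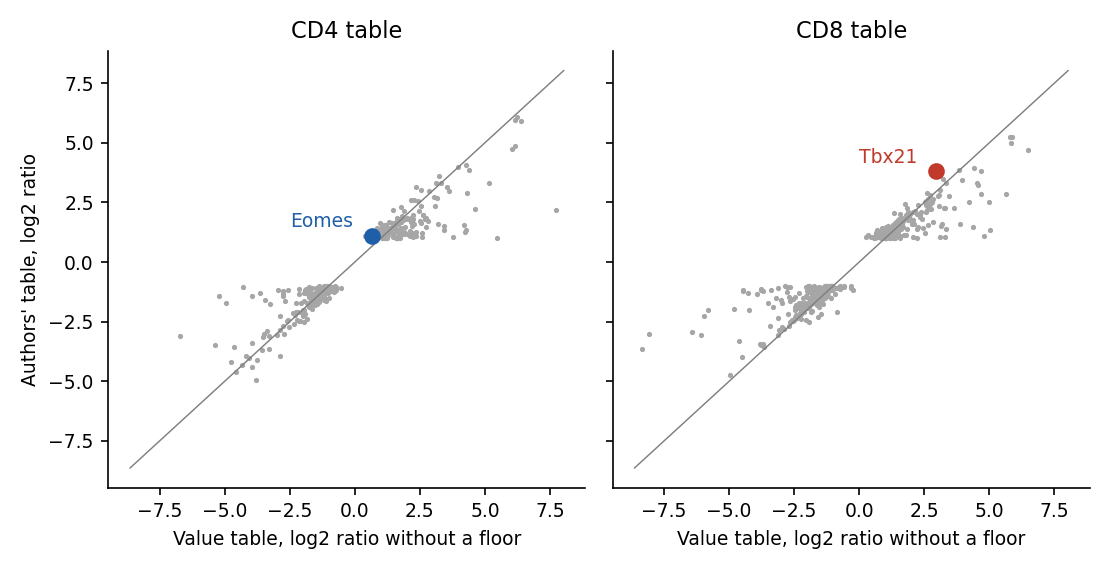
Log2 ratio of intensity, Foxo1-deficient over wild-type, in the authors' deposited tables (y axis) against the same ratio from the value table without a floor (x axis), for the 395 probe sets of the CD4 table (left) and the 496 of the CD8 table (right), with a line of equality. Eomes (blue) and Tbx21 (red) lie above the line, at 2.16 and 14.0 as authors' ratios against 1.57 and 7.83.

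Genes that T-box factors are known to raise were followed through the 7 of 20 list members that had a symbol. Of these 7, 6 were at least 2-fold higher without Foxo1 in CD8 T cells and none lower, with a median log2 difference of 1.97 (bounds included) against -0.00 over all probe sets, and in CD4 T cells 5 were higher and none lower (median 1.38 against 0.02). The authors had listed 6 of them for CD8 and 4 for CD4, so those counts were largely fixed by the listing, and nothing is read from them against the 1.47% and 1.5% of all probe sets. Between the cell types, 4 of the 5 that could be compared in wild-type T cells were at least 2-fold higher in CD8 than in CD4 (median 1.62 against -0.02 over all probe sets), where 2.2% of all probe sets were. In Foxo1-deficient T cells all 7 were (median 2.52 against -0.04), where 1.92% of all probe sets were. These comparisons share their arrays with the listing, and 6 of the 7 have a symbol because they were listed as higher in the deficient CD8 array, so nothing is read from their counts either. The list was chosen with these results known.

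The granule protease gene Gzma had intensities of 95.6 and 424 in wild-type and deficient CD4 and of 113 and 2428 in wild-type and deficient CD8 T cells. Gzma thus differed by 1.19-fold between the wild-type cell types, while without Foxo1 it was 5.72-fold higher in CD8 than in CD4. Gzmb, which encodes the protease granzyme B, was below the floor in both wild-type arrays (11.1 in CD4 and 45.8 in CD8) and reached 204 in deficient CD4 and 1080 in deficient CD8 T cells. The chemokine gene Ccl5 read 27.3, 296, 176 and 1075 in the same order of arrays as Tbx21 above (wild-type CD4, deficient CD4, wild-type CD8, deficient CD8). The chemokine gene Xcl1 read 11.5, 78.9, 57.6 and 294 in that order. Both wild-type values of Xcl1 and the wild-type CD4 value of Ccl5 lay below the floor. The genotype difference of Xcl1 in CD4 was thus a bound of at least 1.05-fold. All 4 were highest in Foxo1-deficient CD8 T cells, and they are the members that differed most between genotypes there.

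The remaining 3 members, named here to complete the list, differed among themselves. Cxcr3, the chemokine receptor of type 1 T cells, read 141, 319, 1395 and 3823, which is 9.91-fold higher in CD8 than in CD4 in wild-type and 12.0-fold in Foxo1-deficient T cells, with 2.27-fold and 2.74-fold genotype differences in CD4 and CD8. Like Eomes, it was ordered by cell type first and by genotype second. Il18rap, an interleukin-18 receptor chain gene, read 82.4, 111, 254 and 753, and was ordered in the same way. The cytotoxic granule gene Nkg7 read 64.1, 195, 9924 and 9920, with a log2 difference between genotypes of -0.00 in CD8 and at least 2.61-fold in CD4, so it was high in CD8 T cells with or without Foxo1.

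**Figure D4:**
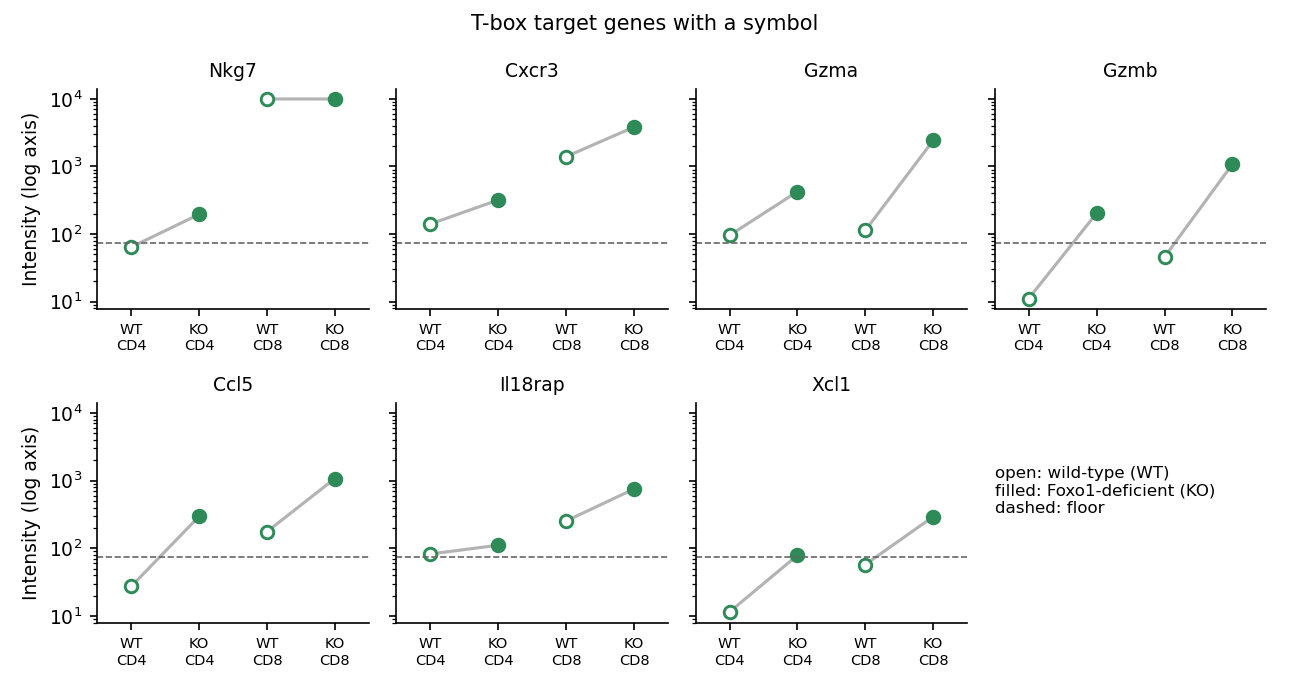
Intensity (log axis) of the 7 T-box target genes with a symbol in the 4 arrays, 1 point per array, with open points for wild-type (WT), filled points for Foxo1-deficient (KO) T cells and a dashed line at the floor of 74.9. Each deficient array lies above its wild-type counterpart for all 7 genes in CD4 and for 6 in CD8 T cells, where Nkg7 (9924 and 9920) is the exception.

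Signals that act upstream of the T-box genes were followed through 3 of 19 list members. Ifngr2, a chain of the interferon gamma receptor, read 320 in wild-type CD4, 364 in deficient CD4, 145 in wild-type CD8 and 413 in deficient CD8 T cells, a 2.84-fold genotype difference in CD8 and 1.14-fold in CD4. Il12rb1, a chain of the interleukin-12 receptor, read 116, 135, 162 and 353 in the same order. Stat4, which relays interleukin-12 signals, went the other way, from 3254 to 1192 in CD4 (2.73-fold lower) and from 4924 to 3308 in CD8 (1.49-fold lower). Of the 3 in CD8 T cells, 2 were thus at least 2-fold higher and none lower, with a median log2 difference of 1.12, where 1.47% of all probe sets were higher and 2.04% lower. In CD4 none was higher and 1, Stat4, was lower, with a median of 0.19, where 1.5% of all probe sets were higher and 1.26% lower. The authors had listed the 2 called members for CD8 and Stat4 for CD4, so these counts were fixed by the listing. None of the 14 other T-box genes on the list had a symbol.

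Among other lineage and memory transcription factors, 8 of 24 had a symbol, 6 of them were at least 2-fold higher in CD8 and 5 in CD4 T cells without Foxo1, and none was lower by that much (1.47% and 1.5% of all probe sets were higher). In CD8 T cells 1 of the 8 was below the floor in both arrays. Their median log2 difference, bounds included, was 1.46 in CD8 and 1.06 in CD4. Ahr, the aryl hydrocarbon receptor gene, read 144, 265, 128 and 749 from wild-type CD4 to deficient CD8, and Irf8, an interferon regulatory factor gene, read 296, 1405, 315 and 1986. The wild-type cell types differed by 1.12-fold and 1.06-fold, against 4.83-fold for Eomes. Ikzf2, which encodes Helios, read 318, 1292, 1068 and 3896, and was 3.36-fold higher in CD8 than CD4 in wild-type and 3.01-fold in deficient T cells. The genotype log2 differences of both Irf8 probe sets were 0.96 and 2.25 in CD4 and 1.69 and 2.66 in CD8, and those of Ikzf2 1.32 and 2.02 in CD4 and 1.87 and 2.15 in CD8. Maf, which encodes a factor of helper T cells, read 229, 195, 36.0 and 205, lowest in wild-type CD8. Id2, which encodes an inhibitor of E protein transcription factors and is named after its values were seen, went the other way, from 3742 to 1968 in CD4 and from 6379 to 3580 in CD8 T cells (log2 differences of -0.93 and -0.83), and it is in the authors' deposited table for CD4 as lower. The list of naive T cell genes, of which 6 of 16 had a symbol, went the other way, with 5 at least 2-fold lower in CD8 and 4 in CD4 T cells and none higher (2.04% and 1.26% of all probe sets were lower), and medians of -2.18 and -1.24. Il7r, the interleukin-7 receptor alpha chain gene, read 15808, 4148, 15760 and 2755, and Dapl1 5080, 767, 6124 and 696. Actn1, the gene of an actin crosslinker, read 11902, 4542, 10007 and 2431, and Il6ra, a chain of the interleukin-6 receptor, 1784, 2072, 1792 and 362. These 4 were chosen as the members that differed most between genotypes in CD8, and all were lowest in the deficient CD8 array. The 3 probe sets of Actn1 had genotype log2 differences of -2.04 to -0.59 in CD8 and of -1.60 to -1.27 in CD4. In CD8 not all of them thus reached 2-fold. The remaining 2 members are named after their values were seen. Klf3, a Krüppel-like factor gene, read 780, 366, 874 and 607 and was lowest in deficient CD4, and Igfbp4, which encodes a binding protein of insulin-like growth factors, read 10804, 12696, 8919 and 3487. Of the lineage factors the authors had listed 6 for CD8 and 5 for CD4, and of the naive genes 5 and 4, so nothing is read from these counts.

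Markers of other cells that can express T-box genes are given for the same arrays, and their part in the results was not tested. Each marker with a symbol has it because the authors listed it as changed between genotypes in at least 1 cell type. A genotype difference where it was listed was thus fixed by the listing, and nothing is read from it. Of 12 NK cell markers, 2 had a symbol, and their summed intensity was 255 in wild-type CD4, 103 in deficient CD4, 184 in wild-type CD8 and 366 in deficient CD8 T cells. Klra9, an NK receptor gene, read 118 in wild-type and 333 in deficient CD8 T cells and was below the floor in both CD4 arrays, while Fcgr3, an Fc receptor gene, was below the floor in every array but wild-type CD4 (189). The sum in deficient CD4 T cells thus holds only values below the floor. Of 9 markers of natural killer T (NKT) and gamma-delta T cells, 2 had a symbol, with sums of 139, 2775, 88.5 and 1338 in the same order. Trgv1, a segment of the gamma chain locus of the T cell receptor, was 31.9 in wild-type and 728 in deficient CD8 T cells and below the floor in both CD4 arrays. Cd163l1, a scavenger receptor gene, read 130, 2746, 56.5 and 610, and made most of the sum in deficient CD4 T cells. Of 11 B cell markers, 3 had a symbol, with sums of 405, 1598, 300.1 and 2469, led by the immunoglobulin light chain gene Igkc (257, 1157, 171 and 1595). Jchain, which encodes the joining chain of secreted immunoglobulins, read 91.0, 335, 85.1 and 560.5, and Ighm, the heavy chain gene of immunoglobulin M, 56.9, 107, 44.3 and 314. Of 12 myeloid markers Lyz2 alone had a symbol (152, 165, 46.6 and 138). Of these 8 markers of other cells, only Igkc and Jchain lay above the floor in every array. Each of the others was below it, and so treated as not measured, in at least 1 array. The list members without a symbol were not analysed here.

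Genes with a pattern over the 4 arrays most like that of each member were found among 502 other genes with a symbol, by the root mean square difference of floored log2 values centred on each probe set's mean. Closest to Tbx21 were Chst11, which encodes a chondroitin sulfotransferase (0.41 log2 units), Trgv1 (0.42), Cd38, which encodes an enzyme that consumes NAD (0.48), Il18rap (0.50) and 4921525O09Rik (0.53). Chst11 read 37.4, 78.3, 214 and 821 and Cd38 114, 175, 157 and 921 from wild-type CD4 to deficient CD8 T cells. Closest to Eomes were AI790276 (0.19), the replication checkpoint gene Clspn (0.28), Hnrnpa1, which encodes an RNA-binding protein (0.28), 4921525O09Rik (0.30) and Chsy1, which encodes a chondroitin synthase (0.30). Chsy1 read 352, 767, 2792 and 4622 and AI790276 521, 1151, 2916 and 4278. Eomes was the 21st closest gene to Tbx21, and Tbx21 the 47th closest to Eomes, at 0.81 log2 units. The Trgv1 probe set lay above the floor in the deficient CD8 array alone, and the Hnrnpa1 probe set read here lay below it in both CD4 arrays. These likenesses thus rest partly on floored values. Probe sets of these genes without a symbol, if any, were not seen, so a low value does not show that the gene is off. All genes compared have a symbol because the authors listed them, and those named as closest to Tbx21 were all, like Tbx21, listed for CD8. With 4 arrays such a likeness is a description of these libraries alone.

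**Figure D5:**
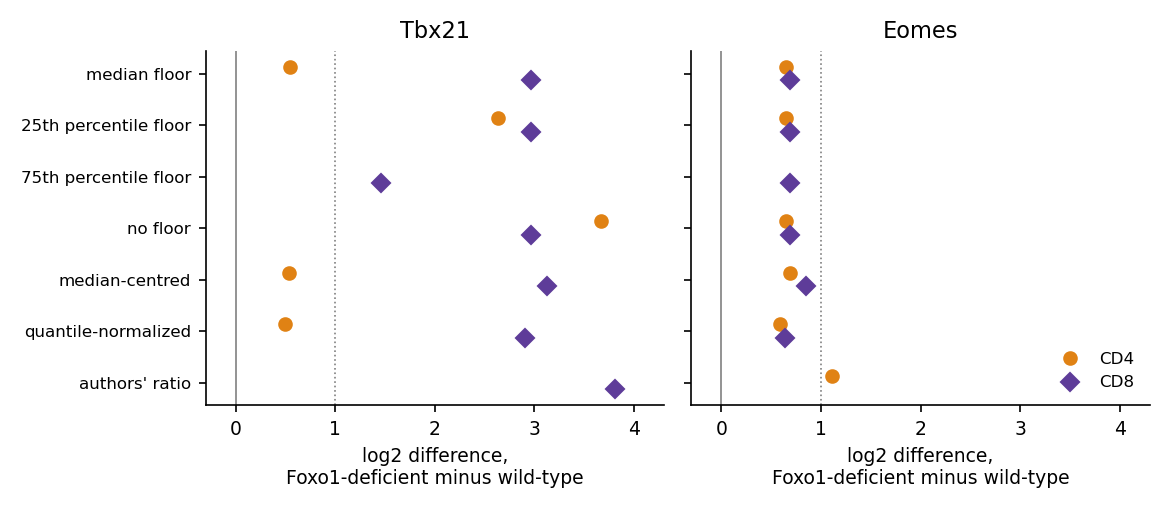
Log2 difference in intensity between Foxo1-deficient and wild-type arrays for Tbx21 (left) and Eomes (right) in CD4 (orange circles) and CD8 T cells (purple diamonds) under each setting on the y axis, with a solid line at 0 and a dotted line at 2-fold. The CD4 value of Tbx21 goes from 0.55 with the median floor to 3.66 without a floor, while the values of Eomes from the value table stay between 0.59 and 0.85, and its authors' ratio in CD4 is 1.11. A missing point means that both arrays lay below the floor or that the authors' table does not list the probe set.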

How the data were processed

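Biotin-labelled cRNA of 4 samples (0.5 ug total RNA each) was put on Affymetrix arrays, per the labels' protocols. The deposited value table gives each probe set a linear intensity on each array. No source used here gives its background correction, probe summary and scaling. The authors also deposited a ratio of deficient to wild-type intensity per listed probe set for each cell type, with both intensities, called raw per the file headers. Of 45101 probe sets, 64 controls were left out. Symbols came from the authors' tables (660 probe sets, 507 genes), 563 of them current in RefSeq for GRCm38.p6, 56 updated through a synonym and 41 kept.

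Log2 differences were taken without further scaling, with values below 74.9 set to it, and probe sets below it in both arrays left out. Calls were made at 2-fold. The additive model was fitted with limma 3.58.1 (R 4.3.3, lmFit and eBayes, two-sided, Benjamini-Hochberg) on 25375 probe sets at or above the floor in at least 1 array. It was also run on simulated data with the same noise at every intensity and equal effects in the cell types. That run checks the code and not how well the model holds for these arrays. Other steps ran in Python 3.11.15 with pandas 2.3.3 and numpy 2.4.6. Each other gene was read from its brightest probe set. Lists with up to 5 members above the floor are named whole and longer ones by the 4 members that differ most between genotypes in CD8. Beyond this rule the other 3 T-box targets, Id2, Klf3 and Igfbp4 are named, chosen after their values were seen. The 5 genes nearest in pattern to each T-box gene are named too. The members, the 12 lists, the motifs and the tests were chosen with earlier results of these data known. 1 gene was taken off these lists and is not reported here. The number of arrays limits the precision. Alternatives were other floors, scalings, thresholds, variance priors and filters, averaged probe sets, and no term for the other factor.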

Additional observations from a re-analysis of the deposited data

Results flagged for a closer look

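Among the list genes named, Maf, Il6ra, Igfbp4 and Nkg7 had genotype differences of opposite sign in the 2 cell types. The share of all probe sets with opposite signs is not given here, so nothing is read from their number. The CD4 differences of Maf, Il6ra and Igfbp4 were smaller than the spread between probe sets of 1 gene in CD4 (0.39 log2 units). Whether their signs differ between the cell types thus cannot be said. Each rests on 1 array per group, and the difference between the cell types was not tested. Maf, a transcription factor gene, had a log2 difference of 1.46 in CD8, a bound, and -0.23 in CD4 T cells. Il6ra, an interleukin-6 receptor chain gene of the naive T cell list, had -2.31 in CD8 and 0.22 in CD4 T cells. Igfbp4, of the same list, had -1.35 in CD8 and 0.23 in CD4 T cells. Nkg7, a cytotoxic granule gene, had -0.00059 in CD8, next to no difference, and 1.38 in CD4 T cells, a bound.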

How the results depend on the processing

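With 1 array per group no sample could be left out, and no replicate numbers pair the arrays. The additive fit compares each factor within the levels of the other. A setting could move 52 recomputed values for Tbx21 and Eomes, in their log2 difference or, in the limma fit, in their adjusted p. Of these, 38 kept their direction and their side of the threshold or moved by less than the spread between probe sets. The 38 include limma terms whose adjusted p moved but stayed above its threshold. Another prior, no filter or no term for the other factor left the log2 differences of the limma terms as they were. Their direction could not change under those settings, so the 38 is not a measure of robustness. A further 25 could not move, because each gene has 1 probe set to average or because both values lay above the floors compared. The floor set most of the others. With the 25th percentile as the floor, Tbx21 had a genotype difference of 2.63 in CD4, a CD8 minus CD4 difference of 3.23 in wild-type, and a gap between cell types of 0.34 (all log2). Without a floor, chosen after seeing the data, these were 3.66, 4.26 and -0.70, the last reversed from 2.42, because the wild-type CD4 value is then used as it stands. With the 75th percentile (470.6) as the floor, Tbx21 had 1.46 for genotype in CD8 and 1.46 for CD8 minus CD4 without Foxo1, Eomes had 1.52 for CD8 minus CD4 in wild-type, and the genotype difference in CD4 had no value for either gene. The ratios in the authors' deposited tables gave 3.81 for Tbx21 in CD8 and 1.11 for Eomes in CD4, the latter past 2-fold, and the cause was not tested.

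In the additive fit the mean-dependent and robust prior left the differences as they were (Eomes 2.30 and Tbx21 3.91 by cell type, Tbx21 3.32 by genotype) and took these 3 past an adjusted p of 0.05. It called 234 probe sets higher and 260 lower by genotype, and 578 and 683 by cell type, against 0 in the first fit. Over all settings of the limma fit the adjusted p ranged from 6.54e-05 to 0.618 for Eomes and 0.000242 to 0.618 for Tbx21 by cell type, and from 0.0628 to 0.994 and 0.000958 to 0.987 by genotype. Without the genotype term 1 probe set was called lower by cell type.

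Counts of probe sets past 2-fold depended on scaling. In CD8 T cells 351 were higher and 485 lower without Foxo1, against 561 and 330 with median centring, and 382 and 456 with quantile normalization. In Foxo1-deficient T cells 455 were higher and 696 lower in CD8 than in CD4, against 622 and 508 with median centring, and 540 and 542 with quantile normalization. At 1.5-fold the genotype counts were 1427 and 1827 in CD8 and 1588 and 1203 in CD4, and the CD8 minus CD4 counts 1876 and 2256 in wild-type and 1428 and 2522 in deficient T cells. At 3-fold they were 73 and 127, 84 and 78, 160 and 113, and 159 and 181, against 361 and 303 (CD4) and 537 and 562 (wild-type) at 2-fold.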
